A study of Bos taurus with 6 samples.

Results

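The kinesin motor genes were the 43 genes whose symbol begins with KIF and a digit, or holds KIFC and a digit, out of 17325 genes measured in 6 libraries of bovine oocytes. The rule used names alone, but earlier results of these data were known when members and classes were chosen. All were oocytes that had reached metaphase II after maturation in vitro, when the egg waits for fertilization. 3 libraries carry the label NC, the negative control, and 3 the label siMTFP1, knockdown of MTFP1, which encodes an inner mitochondrial membrane protein linked to mitochondrial fission. The labels name no other treatment, breed or age. They also do not say whether replicates came from separate animals or cultures, so every p-value measures the spread between these libraries, which may be technical.

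Kinesins are motor proteins that use ATP to walk along microtubules or to take microtubule ends apart. The oocyte builds its meiotic spindle without centrioles, and a set of kinesins slides, bundles, shortens and anchors the microtubules of that spindle and of the midzone from which the polar body is cut off. Other kinesins carry vesicles, mitochondria and RNA along microtubules, a duty best known from neurons and other large cells. Of the 43 genes, 14 were placed with the spindle, 17 with transport and 11 with other roles, mainly in cilia. The last gene, KIF1BP, encodes a protein that binds kinesins and is not a motor, so 42 of the genes found by symbol were motors. KIF4B was also listed with the spindle but is not among the genes measured, so it could not be analysed here.

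The values are FPKM, fragments counted per length of transcript and per sequenced total, so levels of different genes are compared per length. FPKM summed to between 784366 and 892790 per library, 15120 to 15533 genes per library lay above 0, and read depth is unknown. The 14 oocyte marker genes, among them GDF9, BMP15 and ZP3, all had a mean of at least 1 FPKM. Not all were alike between the groups. At an unadjusted p under 0.05 in the limma fit described below, DAZL was higher and ZP2 lower, and 0 of the 14 passed after adjustment. Of 22 cumulus and granulosa markers 14 had a mean of at least 1 FPKM. The summed level of the 22 ran from 174 to 376 FPKM in the NC libraries and from 211 to 1199 in the siMTFP1 libraries. The highest sum, in siMTFP1 2, was mostly TIMP1, at 955 FPKM. Without TIMP1 the sums were 185, 161 and 156 FPKM in NC 1, 2 and 3. In siMTFP1 1, 2 and 3 they were 186, 244 and 183 FPKM. Of the 14 markers tested in the limma fit described below, 11 were higher in siMTFP1 and 3 lower. Their median log2 difference was 0.26, against 0.02 over all tested genes. At an unadjusted limma p under 0.05, 3 were higher and 0 lower, beside 3.86% and 2.66% of all tested genes. In bulk samples fewer cells of a type and less RNA per cell cannot be told apart. Single markers of this list differed widely in level. The receptor gene FSHR, 1 of the 8 below a mean of 1 FPKM, was at 0 in 5 libraries and at 0.02 in NC 3. STAR was at 54.5 to 72.55 FPKM and HAS2 at 33.8 to 49.85, and both were picked here for their high level. The share of cumulus and granulosa RNA in the libraries was not tested. MTFP1 itself was at 0.53, 0.55 and 0.05 FPKM in NC 1, 2 and 3 and at 0.43, 0.58 and 1.15 in siMTFP1 1, 2 and 3 (exact two-sided permutation test of the log2 values, p = 0.4; this design can reach no p below 0.1). The targeted transcript was thus not lower under the knockdown label. At such low levels, with read depth unknown, these values cannot show whether a knockdown took place. Each direction given here is that of the libraries labelled siMTFP1 against those labelled NC.

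The kinesin transcripts of the metaphase II oocyte were mostly those of spindle motors. In each of the 6 libraries the 14 spindle genes together held between 75.1% and 80.2% of all FPKM of the 43 genes, and the 17 transport genes between 16.5% and 21.2%. The summed spindle level was 666, 586 and 665 FPKM in NC 1, 2 and 3 and 704, 637 and 548 in siMTFP1 1, 2 and 3. The summed transport level was 161, 144 and 138 FPKM in the NC libraries and 145, 143 and 154 in the siMTFP1 libraries. The spindle sum was 4.34 ± 0.410 times the transport sum in the NC libraries and 4.29 ± 0.673 times in the siMTFP1 libraries (SD, n = 3), and the ranges of the groups overlapped. Without the most abundant gene of each class the ratio was 8.07 ± 1.04 and 7.67 ± 1.93, because 1 gene, KIF3A, held 55.6% to 64.5% of the transport sum. Sums over genes carry no test here.

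**Figure D1:**
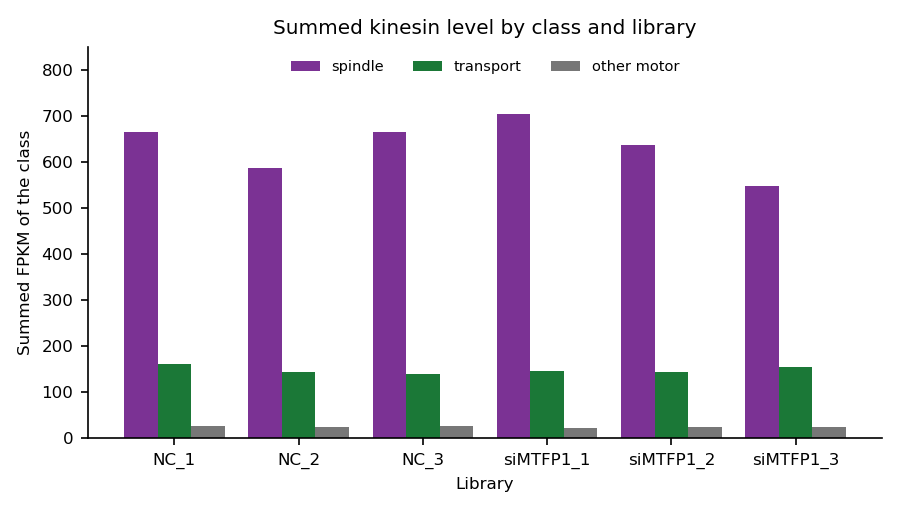
Summed FPKM of the spindle (purple), transport (green) and other (grey) kinesin genes in each of the 6 libraries, 1 bar per class and library. The spindle bars lie between 548 and 704 FPKM and the transport bars between 138 and 161 in all 6 libraries.

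Levels were very uneven within each class. Of the 14 spindle genes, 4 had a mean over the 6 libraries of at least 50 FPKM, 3 lay between 10 and 50, 6 between 1 and 10, and only KIF2B lay below 1. Of the 17 transport genes, 1 reached 50 FPKM, 1 lay between 10 and 50, 8 between 1 and 10, and 7 lay below 1. Among the 11 other motor genes 1 reached 10 FPKM and 7 lay below 1. In all, 65.1% of the 43 genes had a mean of at least 1 FPKM, against 56.2% of all 17325 genes. The 4 most abundant genes, KIF20B, KIF18A, KIF23 and KIF3A, held 66.9% to 74.3% of the kinesin FPKM of a library.

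**Figure D2:**
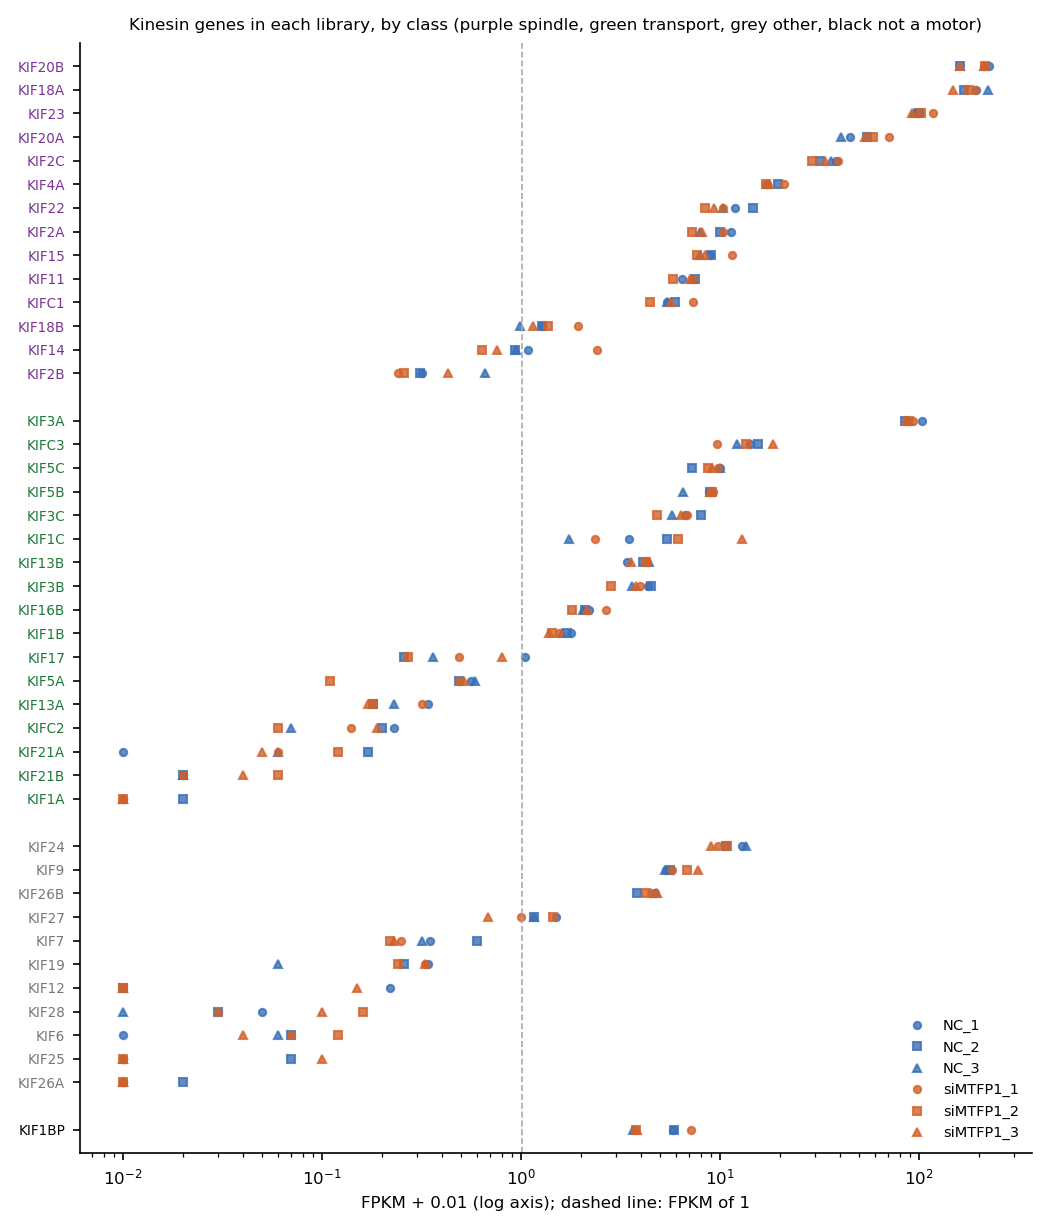
FPKM plus 0.01 on a log axis for each of the 43 genes in each library, grouped by class and ordered by mean; circles, squares and triangles mark replicates 1, 2 and 3, blue is NC and orange siMTFP1. Spindle genes reach from KIF2B near 0.36 FPKM to KIF20B near 198, and 15 of the 43 genes lie left of the dashed line at 1 FPKM by their mean.

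Motors of the spindle midzone and of cytokinesis made up 52.3% to 59.2% of the spindle sum. KIF20B, a kinesin-6 motor needed for the completion of cytokinesis, was the most abundant kinesin and ranked 661 among all genes by mean level. Its FPKM was 224, 160 and 212 in NC 1, 2 and 3 and 212, 215 and 162 in siMTFP1 1, 2 and 3. The lowest value of each group was nearly the same, and the groups overlapped almost fully. KIF23, the kinesin-6 motor of the centralspindlin complex that gathers midzone microtubules, was at 99.9, 100 and 94.4 FPKM in the NC libraries and at 118, 102 and 91.9 in the siMTFP1 libraries. The highest and the lowest KIF23 values were both in libraries labelled siMTFP1.

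KIF20A, the kinesin-6 motor that brings the chromosomal passenger complex to the midzone, was at 45.2, 54.9 and 40.6 FPKM in NC 1, 2 and 3 and at 70.7, 58.8 and 53.5 in siMTFP1 1, 2 and 3. Only NC 2 lay inside the siMTFP1 range. The annotated span of KIF20A overlaps that of CDC23, at 5.37 to 10.97 FPKM, and the span of KIF23 overlaps that of PAQR5, at 11.6 to 15.6 FPKM. The sources used here do not say whether the counting used strand, so reads at such overlaps could not be assigned with certainty. KIF14, a kinesin-3 motor of the midbody, was the least abundant gene of the group, at 1.08, 0.92 and 0.94 FPKM in the NC libraries and at 2.39, 0.63 and 0.75 in the siMTFP1 libraries.

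The genes of plus-end motors and depolymerases were led by KIF18A, a kinesin-8 motor that dampens chromosome movements at the metaphase plate. KIF18A was at 194, 169 and 223 FPKM in NC 1, 2 and 3 and at 192, 179 and 148 in siMTFP1 1, 2 and 3. It lay above KIF20B in NC 2 and NC 3 and below it in the other 4 libraries, so the order of these genes changed between libraries. Its paralogue KIF18B, which shortens astral microtubules, was at 0.98 to 1.93 FPKM, and KIF18A was 99.4 to 227 times as abundant.

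KIF2C, the kinesin-13 depolymerase that helps to correct wrong attachments at centromeres, was at 38.5, 32.0 and 36.3 FPKM in the NC libraries and at 39.2, 29.0 and 33.6 in the siMTFP1 libraries. KIF2A, the kinesin-13 depolymerase of spindle poles, was at 11.3, 10.1 and 7.95 FPKM in the NC libraries and at 10.4, 7.21 and 8.15 in the siMTFP1 libraries. KIF2C exceeded KIF2A in 6 of 6 libraries, by a ratio of 3.18 to 4.56. The remaining kinesin-13 spindle gene, KIF2B, was at 0.23 to 0.65 FPKM.

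Motors that push chromosome arms outward were of middle level. KIF4A, a kinesin-4 chromokinesin that also sets midzone length with PRC1, was at 17.25, 19.6 and 17.2 FPKM in NC 1, 2 and 3 and at 20.9, 16.95 and 17.6 in siMTFP1 1, 2 and 3. KIF22, the kinesin-10 chromokinesin also called Kid, was at 11.9, 14.7 and 10.4 FPKM in the NC libraries and at 10.4, 8.37 and 9.37 in the siMTFP1 libraries. The lowest NC value of KIF22 and its highest siMTFP1 value differed by 0.01 FPKM.

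The motors that set up spindle bipolarity lay below the midzone motors KIF20B, KIF23 and KIF20A and above KIF14. KIF11, the kinesin-5 motor that slides antiparallel microtubules apart and is known as Eg5, was at 6.46, 7.48 and 7.24 FPKM in NC 1, 2 and 3 and at 7.28, 5.79 and 7.06 in siMTFP1 1, 2 and 3. KIF15, the kinesin-12 motor that can stand in for it, was at 8.95, 9.04 and 7.90 FPKM in the NC libraries and at 11.5, 7.69 and 8.45 in the siMTFP1 libraries. KIFC1, the kinesin-14 minus-end motor that focuses spindle poles, was at 5.44, 5.92 and 5.42 FPKM in the NC libraries and at 7.34, 4.45 and 5.70 in the siMTFP1 libraries. The 3 genes summed to between 17.9 and 26.1 FPKM per library, or 2.81% to 3.87% of the spindle sum. KIF14, KIF11, KIF15 and KIFC1 were chosen for these values after they had been seen.

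Among transport kinesins KIF3A stood alone. KIF3A, the kinesin-2 subunit that pairs with KIF3B or KIF3C and binds cargo through KIFAP3, was at 104, 84.9 and 89.0 FPKM in NC 1, 2 and 3 and at 93.0, 89.5 and 85.8 in siMTFP1 1, 2 and 3. With a coefficient of variation of 7.63% over the 6 libraries it was the least variable of the tested kinesin genes. Its level was close to that of the spindle gene KIF23, which was the higher of the pair in 5 of 6 libraries.

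The partners of KIF3A were far less abundant. KIF3B was at 4.36, 4.49 and 3.6 FPKM in the NC libraries and at 3.98, 2.83 and 3.79 in the siMTFP1 libraries. KIF3C was at 6.66, 8 and 5.77 FPKM in the NC libraries and at 6.86, 4.84 and 6.35 in the siMTFP1 libraries. KIFAP3 was at 8.96, 6.57 and 11.6 FPKM in the NC libraries and at 7.90, 8.73 and 7.60 in the siMTFP1 libraries. In each library KIF3A was thus 18.9 to 31.6 times as abundant as KIF3B, 10.6 to 18.5 times as abundant as KIF3C and 7.69 to 12.9 times as abundant as KIFAP3. KIF17, the homodimeric kinesin-2 motor, was at 0.25 to 1.04 FPKM.

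Kinesin-1, the conventional motor of vesicles and mitochondria, was represented by similar levels of KIF5B and KIF5C. KIF5B, the form found in most tissues, was at 8.82, 8.86 and 6.51 FPKM in NC 1, 2 and 3 and at 9.22, 9.12 and 8.90 in siMTFP1 1, 2 and 3. KIF5C, best known from neurons, was at 10.05, 7.27 and 9.98 FPKM in the NC libraries and at 9.82, 8.66 and 9.16 in the siMTFP1 libraries. KIF5C exceeded KIF5B in 4 of 6 libraries, and KIF5A, the other neuronal form, was at 0.10 to 0.58 FPKM. The 4 light chain genes KLC1 to KLC4 summed to only 1.00 to 2.78 FPKM per library, and the heavy chain sum was 6.43 to 17.1 times the light chain sum.

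Kinesin-3 genes were low, and KIF1C was the most variable of the tested kinesins. KIF1C, a carrier of dense-core vesicles and integrins, was at 3.47, 5.43 and 1.73 FPKM in NC 1, 2 and 3 and at 2.35, 6.13 and 12.9 in siMTFP1 1, 2 and 3. The value in siMTFP1 3 stood above all others, while siMTFP1 1 lay below 2 of the 3 NC libraries. In siMTFP1 3 the granulosa gene CYP11A1 also had its highest value, 13.4 FPKM, the only 1 of the 22 cumulus and granulosa markers that did. The summed cumulus and granulosa level there, 215 FPKM, lay within the NC range, as did the sum without TIMP1, 183 FPKM. Single markers went both ways. SPARC, at 4.88 FPKM in siMTFP1 3, lay above every NC value, and TNFAIP6, at 1.16, lay below every NC value. The part of such cells in the KIF1C values was not tested. KIF13B was at 3.4, 4.10 and 4.39 FPKM in the NC libraries and at 4.27, 4.24 and 3.55 in the siMTFP1 libraries. KIF16B, a motor of early endosomes, was at 1.80 to 2.68 FPKM, and KIF1B, known as a carrier of mitochondria and synaptic vesicle precursors, was at 1.38 to 1.78. KIF13A was at 0.16 to 0.33 FPKM, and KIF1A, a motor of axons, was above 0 only in NC 2, at 0.01.

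KIFC3, a kinesin-14 minus-end motor, was the second transport gene by level. It was at 14.2, 15.6 and 12.1 FPKM in NC 1, 2 and 3 and at 9.71, 13.55 and 18.5 in siMTFP1 1, 2 and 3. The siMTFP1 libraries held both its lowest and its highest value. The remaining minus-end gene KIFC2 and the kinesin-4 genes KIF21A and KIF21B were at most at 0.22 FPKM in any library.

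Genes with other roles were led by KIF24 and KIF9. KIF24, a kinesin-13 relative that acts at centrioles and restrains cilium formation, was at 12.97, 10.7 and 13.5 FPKM in NC 1, 2 and 3 and at 9.78, 10.8 and 9 in siMTFP1 1, 2 and 3. KIF9, a kinesin-9 protein of motile cilia and sperm tails, was at 5.36, 5.62 and 5.26 FPKM in the NC libraries and at 5.71, 6.83 and 7.74 in the siMTFP1 libraries. KIF26B was at 3.82 to 4.80 FPKM and KIF27 at 0.67 to 1.5. The Hedgehog pathway kinesin KIF7 was at 0.31 to 0.59 FPKM in the NC libraries and at 0.21 to 0.24 in the siMTFP1 libraries. KIF7 was too low to be tested. Of the genes that were tested 5.05% also lay lower without overlap, but that share does not cover genes below the level filter, such as KIF7. The annotated span of KIF7 overlaps that of TICRR, at 1.00 to 2.52 FPKM, so its reads too could not be assigned with certainty. KIF6, KIF12, KIF19, KIF25, KIF26A and KIF28 were at most at 0.33 FPKM. The binding protein KIF1BP, now named KIFBP, was at 5.79, 5.89 and 3.65 FPKM in the NC libraries and at 7.16, 3.80 and 3.83 in the siMTFP1 libraries.

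No kinesin gene passed the test between the labelled groups. The design asks how the transcriptome differs between them, and limma, a linear model with a spread estimate shared across genes, was fitted to log2(FPKM + 1) of the 9730 genes with a mean of at least 1 FPKM. Of the 43 kinesin genes 28 passed this level filter, 13 of them spindle, 10 transport and 4 other motors, with KIF1BP as the last. KIF14 at a mean of 1.12 FPKM and KIF27 at 1.15 lay just above the filter, and KIF17 at 0.528 and KIF5A at 0.450 were next below it. At a Benjamini-Hochberg adjusted p under 0.05 the limma fit called 0 of the 28 kinesin genes and 0 of all tested genes, a share of 0.00%. At an unadjusted p under 0.05 it held 0 of 28 kinesin genes, where 6.53% of all tested genes did (3.86% higher and 2.66% lower). Among the 28 genes the siMTFP1 mean was above the NC mean in 14 and below it in 14. Their median log2 difference was 0.00, against 0.02 over all tested genes, with 0.03 for spindle and -0.01 for transport genes.

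Among the tested kinesin genes the smallest unadjusted limma p-values were those of KIF20A, KIF22 and KIF24, each above 0.05. Mean KIF20A was 46.9 ± 7.30 FPKM in the NC libraries and 61.0 ± 8.80 in the siMTFP1 libraries (SD, n = 3). On the log2(FPKM + 1) scale used for all differences here this was 0.37 higher (SE 0.17, 95% interval -0.01 to 0.75, limma adjusted p = 0.766). For KIF22 the means were 12.4 ± 2.21 and 9.37 ± 1.01 FPKM, and the log2 difference was -0.36 (SE 0.17, 95% interval -0.75 to 0.04, limma adjusted p = 0.783). For KIF24 they were 12.4 ± 1.5 and 9.87 ± 0.913 FPKM, and the log2 difference was -0.30 (SE 0.16, 95% interval -0.66 to 0.06, limma adjusted p = 0.815). The groups overlapped in all 3 of these genes.

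The p of KIF20A and that of KIF22 lay on either side of 0.05 depending on the setting. KIF20A was at an unadjusted limma p of 0.0527 in the fit above, 0.0494 with no level filter, 0.0230 without NC 2 and 0.0366 without siMTFP1 3. In every other alternative its unadjusted limma p was above 0.05, up to 0.164 without NC 3. KIF22 was at 0.0711 in the fit above, 0.0454 after median-ratio scaling, 0.0475 after quantile normalization, 0.0217 with array weights and 0.0352 without NC 3. Its unadjusted limma p was above 0.05 in every other alternative, up to 0.238 without NC 2. Over all alternatives the log2 difference of KIF20A ran from 0.26 to 0.49 and that of KIF22 from -0.46 to -0.23, and the smallest adjusted p was 0.462 and 0.366.

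**Figure D3:**
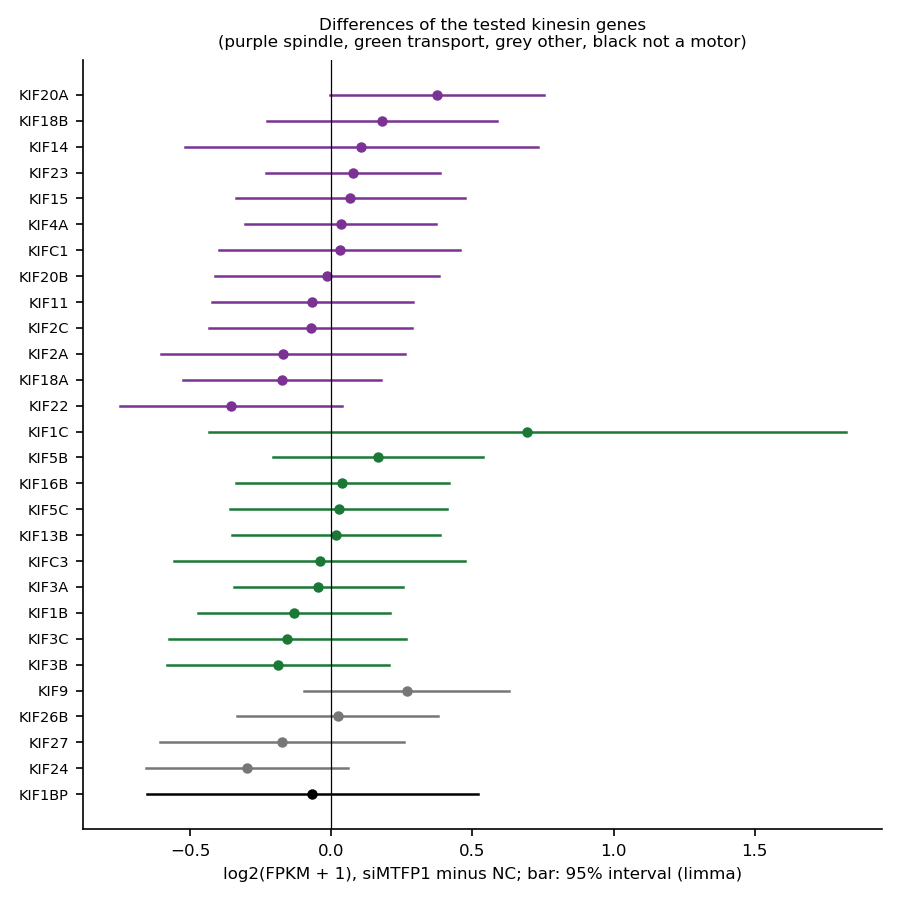
Difference between the libraries labelled siMTFP1 and NC on the log2(FPKM + 1) scale for the 28 tested genes, by class, with the 95% interval of the limma fit as a bar. Every bar crosses 0, and KIF1C has the widest interval, from -0.43 to 1.82.

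KIF1C had the largest difference of the 28 genes and also the largest error. Its means were 3.54 ± 1.85 FPKM in the NC and 7.14 ± 5.37 FPKM in the siMTFP1 libraries, and the log2 difference was 0.70 (SE 0.49, limma adjusted p = 0.880). The difference was 0.19 without siMTFP1 3, 0.37 without NC 3 and 1.22 without siMTFP1 1, so its size rested on which library was kept. The last fit gave an unadjusted limma p of 0.0182, with an adjusted limma p of 0.537. For the other 27 genes the whole 95% interval lay within 1 log2 unit of 0. Because 1 is added to FPKM, this scale shrinks differences of genes near 1 FPKM, such as KIF14 and KIF27. For them 1 unit is more than a doubling of FPKM, so the interval sets a looser limit. The median width of the interval over the 28 genes was 0.76 log2 units.

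In 3 of the 28 tested genes, or 10.7%, the groups did not overlap, beside 11.0% of all tested genes. KIF9 and KIF5B were higher in all 3 siMTFP1 libraries than in any NC library, where 5.97% of all tested genes were, and KIF1B was lower, where 5.05% were. The KIF9 means were 5.41 ± 0.186 and 6.76 ± 1.02 FPKM, which differed by 0.27 on the log2 scale (SE 0.16, limma adjusted p = 0.842). The KIF5B means were 8.06 ± 1.35 and 9.08 ± 0.164 FPKM, apart by 0.16 on the log2 scale (SE 0.16, limma adjusted p = 0.909). Its lowest siMTFP1 value exceeded its highest NC value by less than 0.1 FPKM. The KIF1B means were 1.69 ± 0.0950 and 1.45 ± 0.0874 FPKM, and the difference was -0.13 on the log2 scale (SE 0.15, limma adjusted p = 0.923).

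For the most abundant kinesins the 95% interval of the difference held 0. The log2 difference was -0.02 (SE 0.17) for KIF20B, -0.17 (SE 0.15) for KIF18A, 0.08 (SE 0.14) for KIF23 and -0.05 (SE 0.13) for KIF3A. Mean KIF18A was 195 ± 26.8 FPKM in the NC and 173 ± 22.3 FPKM in the siMTFP1 libraries, and the groups overlapped. The 95% interval ran from -0.41 to 0.38 for KIF20B, from -0.52 to 0.18 for KIF18A, from -0.23 to 0.39 for KIF23 and from -0.34 to 0.25 for KIF3A. KIF2C, KIF4A, KIFC3, KIF5C and KIF13B had absolute log2 differences of at most 0.07, and those of KIF2A, KIF3B and KIF3C were -0.17, -0.19 and -0.16.

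Libraries with the siMTFP1 label held many of the highest and lowest values of spindle genes. Library siMTFP1 1 held the highest value of 8 of the 13 tested spindle genes, and siMTFP1 2 held the lowest value of 8 of the 13. KIF20B, KIF18A, KIF22, KIF2A and KIF11 were not highest in siMTFP1 1. Among all tested genes siMTFP1 1 was highest for 21.9% and siMTFP1 2 lowest for 13.5%. The median spindle gene lay 0.19 log2 units above its own mean over the 6 libraries in siMTFP1 1, and -0.18 and -0.11 from it in siMTFP1 2 and 3. In NC 1, 2 and 3 the medians were 0.02, 0.03 and -0.08. For all tested genes these medians were 0.04, 0.01 and -0.02 in the siMTFP1 libraries and 0.05, -0.01 and -0.08 in the NC libraries. For transport genes they were 0.07, -0.04 and 0.00 in siMTFP1 1, 2 and 3 and 0.06, 0.06 and -0.06 in NC 1, 2 and 3.

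**Figure D4:**
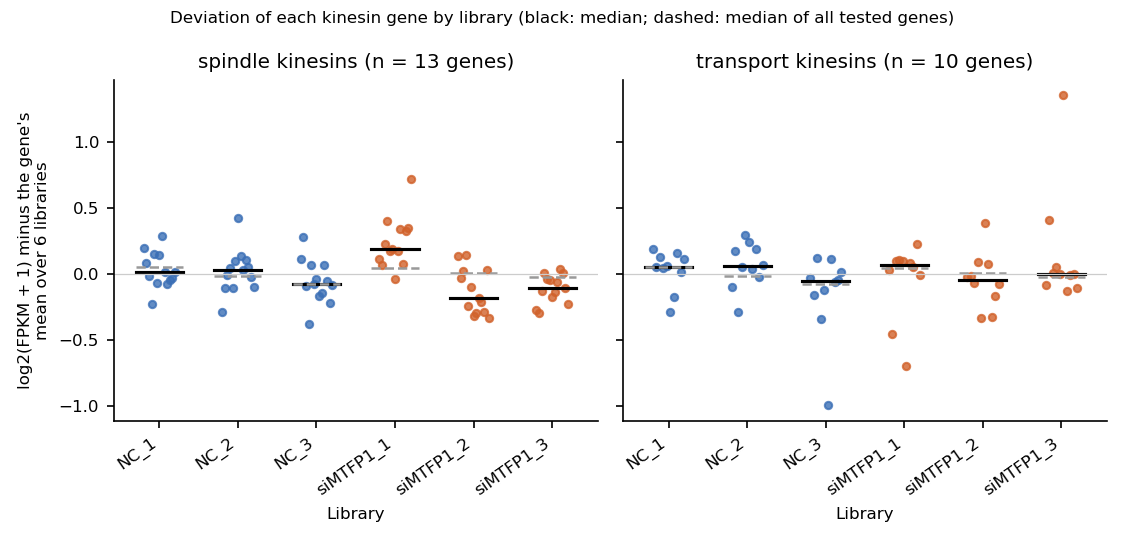
Each point is a tested spindle (left) or transport (right) gene, placed by its log2(FPKM + 1) minus its own mean over the 6 libraries, with the median as a black bar and the median of all tested genes as a dashed line; blue is NC and orange siMTFP1. Spindle genes lie mostly above 0 in siMTFP1 1 (median 0.19) and below it in siMTFP1 2 (median -0.18).

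KIF14 showed this spread most plainly, at 2.39 FPKM in siMTFP1 1 and at 0.63 and 0.75 in siMTFP1 2 and 3. Its log2 difference was 0.11 (SE 0.27) with all libraries and -0.23 without siMTFP1 1. KIF20A, KIF23, KIF2C, KIF4A, KIF15, KIFC1 and KIF18B likewise had their highest value in siMTFP1 1. Summed cumulus and granulosa markers were at 211 FPKM in siMTFP1 1 and at 1199 in siMTFP1 2. Without TIMP1 these sums were 186 and 244 FPKM, and the part of such cells in the spread was not tested. Of 45 tested partner genes of the spindle, 16 (35.6%) were highest in siMTFP1 1 and 5 (11.1%) lowest in siMTFP1 2. These partners were most often lowest in siMTFP1 3, for 14 of 45 (31.1%), and highest there for 0. This pattern was looked for after the values had been seen, and no test was made of it.

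Spindle partners ranged from far above to below the motors they work with. The list held 48 genes, and 45 passed the level filter. The pole kinase AURKA, at a mean of 3454 FPKM, and the kinetochore protein SKA1, at 3192, were the most abundant, followed by the microtubule bundler NUSAP1 at 889. PRC1, which recruits KIF4A to the midzone, was 10.7 to 12.2 times as abundant as KIF4A, and TPX2, which binds KIF11, was 12.1 to 17.4 times as abundant as KIF11. RACGAP1, the partner of KIF23 in centralspindlin, went the other way, and KIF23 was 2.34 to 4.17 times as abundant. CENPE, the kinesin-7 motor of kinetochores whose symbol lies outside the rule, was at 9.29 to 15.3 FPKM, and KIF18A was 12.5 to 17.5 times as abundant.

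**Figure D5:**
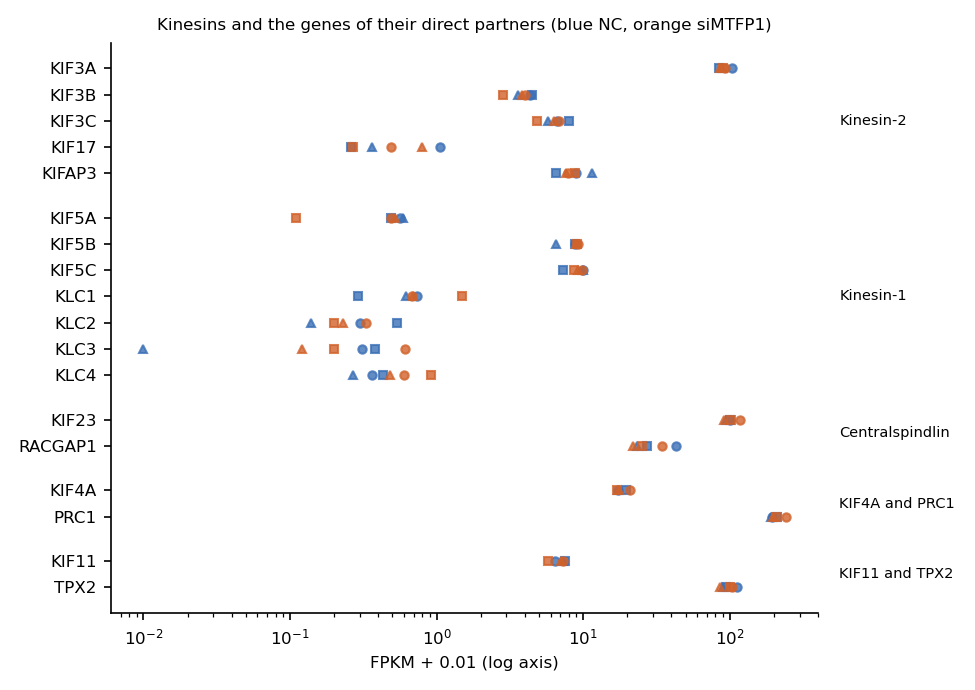
FPKM plus 0.01 on a log axis in each library for kinesin-2 and kinesin-1 subunits, centralspindlin, KIF4A with PRC1 and KIF11 with TPX2; circles, squares and triangles mark replicates 1, 2 and 3, blue is NC and orange siMTFP1. KIF3A lies to the right of KIF3B, KIF3C and KIFAP3, at least 7.69 times as high in every library, and the KLC genes lie left of KIF5B and KIF5C.

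Among the 45 tested spindle partners the siMTFP1 mean was above the NC mean in 22 and below it in 23, with a median log2 difference of -0.01 against 0.02 over all tested genes. By limma 0 passed adjusted over all genes, and 0 higher and 2 lower genes had an unadjusted p under 0.05, where 3.86% and 2.66% of all tested genes did. NUF2, a kinetochore protein that binds microtubules, was at 110.02, 88.0 and 108 FPKM in NC 1, 2 and 3 and at 77.7, 79.2 and 82.5 in siMTFP1 1, 2 and 3. It differed by -0.34 on the log2 scale (SE 0.14, limma adjusted p = 0.750). NUSAP1 was at 1071, 801 and 1161 FPKM in the NC libraries and at 797, 729 and 776 in the siMTFP1 libraries, and differed by -0.38 on the log2 scale (SE 0.15, limma adjusted p = 0.750). The groups overlapped for neither gene. They did not overlap for 6 of the 45 genes in all (13.3%), each time with the siMTFP1 libraries lower, beside 11.0% of all tested genes in either direction and 5.05% lower. The next smallest p-values were those of the GTPase RAN, with a log2 difference of -0.30, and of the severing enzyme KATNA1, with 0.43.

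Transport partners were mixed in level. Besides KIF1BP the list held 32 genes, of which 18 passed the filter and 14 lay below it, among them all 4 KLC genes. The vesicle protein SNAPIN at a mean of 410 FPKM and the kinesin-1 adaptor FEZ2 at 91.0 were the most abundant. Of the genes that tie kinesin-1 to mitochondria, TRAK1 was at 5.56 to 8.57 FPKM, TRAK2 at 12.3 to 16.4, RHOT1 at 25.4 to 30.6 and RHOT2 at 0.09 to 0.48. By limma 0 of 18 had an unadjusted p under 0.05, where 6.53% of all tested genes did. The siMTFP1 mean was above the NC mean in 8 and below it in 10. The 4 smallest p-values were those of the kinesin-1 cofactor MAP7D2 at a log2 difference of -0.26, TRAK1 at 0.23, FEZ1 at 0.27 and FEZ2 at 0.18.

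Dynein, the minus-end motor that works against many kinesins, was given by 26 genes with its dynactin cofactor, of which 22 were tested. Light and intermediate chains were abundant, with means of 642 FPKM for DYNLT1, 534 for DYNLL1 and 385 for DYNC1I2, while the heavy chain gene DYNC1H1 lay at 0.27 to 0.42 FPKM. By limma 2 of the 22 were higher at an unadjusted p under 0.05, 0 were lower and 0 passed adjusted over all genes; of all tested genes 3.86% were higher and 2.66% lower at that p. DCTN6, a dynactin pointed-end subunit, was at 23.3, 38.6 and 22.7 FPKM in NC 1, 2 and 3 and at 80.4, 68.6 and 49.3 in siMTFP1 1, 2 and 3, without overlap, as were 5.97% of all tested genes in that direction. It differed by 1.21 on the log2 scale (SE 0.25, limma adjusted p = 0.495). DCTN2, the dynactin subunit dynamitin, was at 1.84, 1.53 and 2.46 FPKM in the NC libraries and at 2.74, 4.98 and 2.95 in the siMTFP1 libraries, also without overlap, and differed by 0.61 on the log2 scale (SE 0.22, limma adjusted p = 0.750). SPDL1 and NDE1, which help dynein to bind, had log2 differences of -0.27 and 0.37.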

How the data were processed

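Total RNA was extracted with TRIzol and made into mRNA libraries with the Optimal Dual-mode kit of BGI; this is per the labels' protocols. The deposited files, made by the authors, hold FPKM values to 2 decimals for 17325 genes in each of 6 libraries. Per the submitters' processing notes the tools were RSEM 1.3.1, HISAT2 2.2.1, Bowtie2 2.3.4.3 and DESeq2 1.4.5, and the build was ARS-UCD1.2; roles and order are not stated. FPKM divides by length and library total and keeps no read total, so depth is unknown, a count model could not be used, and no counting interval is given. The sources used here do not say how reads shared by similar genes were divided. By gene ID 43 of 43 kinesin genes were found in RefSeq (ARS-UCD2.0), which served for names and overlaps only: 18 overlap some annotated gene and 4 a measured one. No sequences are shown, since no sequence table was used here.

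Groups came from the titles. Genes whose mean FPKM reached 1 were compared on log2(FPKM + 1) with limma 3.58.1 in R 4.3.3 (eBayes with trend, two-sided, group as the only term), adjusted by Benjamini-Hochberg over all 9730 tested genes. The fit was tested on simulated data first. Members, classes and lists were chosen with earlier results of these data known. Values in every library are given for the 8 spindle, 8 transport and 2 other kinesins of highest mean, and of partner lists the 4 genes of smallest p and 3 of highest level are named, except 1 that is not reported here. Genes outside this rule (KIF11, KIF15, KIFC1, KIF14, KIF1B, KIF7, KIF1BP, TRAK2, RHOT1, RHOT2, DYNC1H1, the KLC genes and partners given as ratios) were chosen after their values were seen. Alternatives covered pseudocounts, filters, scalings, array weights, the trend, a replicate block and leaving out each library. Tables and plots used Python 3.11.15, pandas 2.3.3 and matplotlib 3.10.9.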

Additional observations from a re-analysis of the deposited data

How the results depend on the processing

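No kinesin gene passed at an adjusted p under 0.05 in any of the 16 limma alternatives. The count of kinesin genes at an unadjusted p under 0.05 was 0 in both directions and became 1 higher with no filter (KIF20A) and 1 lower with median-ratio scaling, quantile normalization or array weights (KIF22 each time); leaving out 1 library gave 0 to 1 higher and 0 to 1 lower. Over all tested genes the limma count was 0 and became 2 with a mean FPKM of at least 5 or FPKM rescaled to equal sums, and 0 to 2 when 1 library was left out. The count at an unadjusted p under 0.05, 635 of all tested genes, was 1037 with no filter, 358 with a mean FPKM of at least 5, 1080 with array weights and 336 to 764 when 1 library was left out, lowest without siMTFP1 2.

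Small log2 differences changed sign. With array weights they were 0.06 for KIF20B, -0.0326 for KIF4A and -0.10 for KIF14. After quantile normalization they were -0.0077 for KIF4A, -0.0080 for KIF5C, -0.0133 for KIF14 and -0.0389 for KIF13B, which was -0.0036 after median-ratio scaling. When 1 library was left out, the range was -0.16 to 0.12 for KIF20B, -0.0173 to 0.16 for KIF23, -0.18 to 0.0326 for KIF2C, -0.054 to 0.0922 for KIF4A, -0.11 to 0.0391 for KIF3A, -0.26 to 0.18 for KIFC3, -0.11 to 0.0985 for KIF5C, -0.066 to 0.0876 for KIF13B and -0.23 to 0.30 for KIF14; the cause was not tested. Of the 24 genes recomputed, the 15 others kept their direction in the 15 or 16 alternatives run for each.

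The ratio of the spindle to the transport sum was 8.07 (NC) and 7.675 (siMTFP1) without the most abundant gene of each class, and 5.52 (NC) and 4.42 (siMTFP1) with medians in place of sums. Correlations of deviations were 0.034, -0.163 and 0.067 for same-numbered libraries of the 2 groups, and -0.258 to 0.231 for differently numbered ones. With 3 libraries per group these values cannot show whether the replicate numbers pair the libraries. With the replicate block the limma fit gave 630 genes at an unadjusted p under 0.05, 0 of them kinesins. Read depth is unknown, so the limit it sets on genes under 1 FPKM is unknown too.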
